A study of Rattus norvegicus with 13 samples.

Results

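The 9 genes described here are grouped under homeostatic microglia, the resident macrophages of the brain in their surveying state, though not all are particular to them: Aif1, Cx3cr1, P2ry12, Csf1r, Tmem119, Trem2, Tyrobp, Itgam and Gpr34. They were chosen by name, as the probes whose gene name in the array files equals 1 of these symbols. The rule uses no measured value, but the set was drawn up with earlier results of these data known. The 9 genes have 13 probes among the 30367 on the array, and were read from a fit over 17245 genes. All 13 probes were well above background on all 13 arrays.

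Frontal cortex was taken from male Sprague–Dawley rats 1 month after trauma or a sham operation, and each sample was hybridised to its own 1-colour Agilent array. For head acceleration rotational injury, which turns the head rapidly, there were 3 injured and 3 sham samples. For lateral fluid percussion injury, which drives a fluid pulse onto the dura, there were 3 injured and 4 sham samples. Every sham animal was anaesthetised and operated on, so anaesthesia and surgery are shared by all groups, and no group was left unoperated. The replicates are labelled as separate samples, and nothing in the labels says more about their animals. The p-values therefore weigh a difference against the spread between these samples.

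Microglia depend on the receptor CSF1R for survival and read neuronal state through receptors for fractalkine (CX3CR1) and for extracellular nucleotides (P2RY12). The lipid-sensing receptor TREM2 signals through the adaptor TYROBP. In injured or degenerating brain, microglia are known to lower P2ry12, Cx3cr1 and Tmem119 while raising phagocytic genes. AIF1, also called IBA1, and the integrin ITGAM, also called CD11b, are the proteins most often stained to find these cells, and both are shared with other macrophages.

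The tissue was unsorted, and the arrays measure RNA relative to the rest of the tissue. Fewer microglia and less RNA per microglial cell therefore cannot be told apart. Each model had a slide of its own, and effects of the model and of its slide cannot be told apart either. Within each slide trauma and sham lay in different slide columns, in opposite order on the 2 slides. Effects of trauma and of slide column therefore cannot be told apart within a model. A column effect would have opposite signs in the 2 models and would add up in the difference between them. The share of spots well above background was 73.1% to 74.1% in rotational sham and 67.0% to 72.5% in rotational trauma. It was 67.6% to 69.4% in percussion sham and 72.7% to 73.8% in percussion trauma. The part of this difference in any result below was not tested. Levels are given as log2 signal minus the array's 75th percentile (scaled log2 signal), and every difference is trauma minus the sham of the same model.

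Some probe sequences bear on how far a value can be read, and are given 5′ to 3′ as the array files hold them, with positions on the rat build rn4. The Gpr34 probe (chrX:21117225-21117284, minus strand) is shown because Gpr34 was the only member whose trauma and sham arrays did not overlap. It reads in frame as 19 codons followed by the stop codon in capitals, so it lies at the end of the coding sequence.
Gpr34 A_64_P125245: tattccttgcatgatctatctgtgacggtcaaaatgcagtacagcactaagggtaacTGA
The Itgam probes (A_43_P15993 at chr1:187385032-187385565 and A_64_P023848 at chr1:187385524-187385583, plus strand) are shown because they overlap. The capitals mark a run of 34 bases that both hold, so their values are not independent. The first spans 534 bases of the genome for 60 bases of probe and so crosses an exon junction, and the second reads in frame as 19 codons and a stop.
Itgam A_43_P15993: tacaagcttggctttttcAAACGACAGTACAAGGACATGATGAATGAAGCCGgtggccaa
Itgam A_64_P023848: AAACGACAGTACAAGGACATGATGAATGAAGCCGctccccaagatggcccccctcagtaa
The only Cx3cr1 probe ends in a repeat, which takes up bases 39 to 60 of its 60 and is shown because other probes share it.
Cx3cr1 A_64_P008406, bases 39 to 60: CACACACACACACACACACACA
Among the other members' probes, the longest run of this kind has 4 bases.

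None of the 9 genes passed an adjusted p of 0.05 in either model, in the mean of both or in the difference between them. The fit over all genes called 2 genes (0.0116%) in the rotational model and 0 (0%) in each of the other 3 comparisons, by limma with Benjamini-Hochberg adjustment. At an unadjusted p under 0.05, 1 of 9 members was counted in the rotational model, against 6.86% of all genes (1183 of 17245). The counts were 0 of 9 against 11.3% in the percussion model, 1 of 9 against 8.92% in the mean of both, and 1 of 9 against 8.56% in the difference. After rotational injury 3 members lay above their sham and 6 below, with a median log2 difference of −0.18 beside −0.03 over all genes. Of all genes, 39.8% lay above 0 and 60.2% below in that comparison. After percussion injury 6 lay above and 3 below, with a median of 0.02 beside 0.01 over all genes, of which 52.7% were above 0 and 47.3% below. Scaling the arrays by their median in place of the 75th percentile changed that 52.7% to 36.3%, and put Tmem119 at −0.06 and both Trem2 and the median of the members at −0.04.
Both medians moved when single arrays were left out. The rotational median was −0.02 without rotational trauma 2 and −0.04 without rotational trauma 3. The percussion median ran from −0.01 without percussion sham 3 to 0.12 without percussion sham 2.

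**Figure D1:**
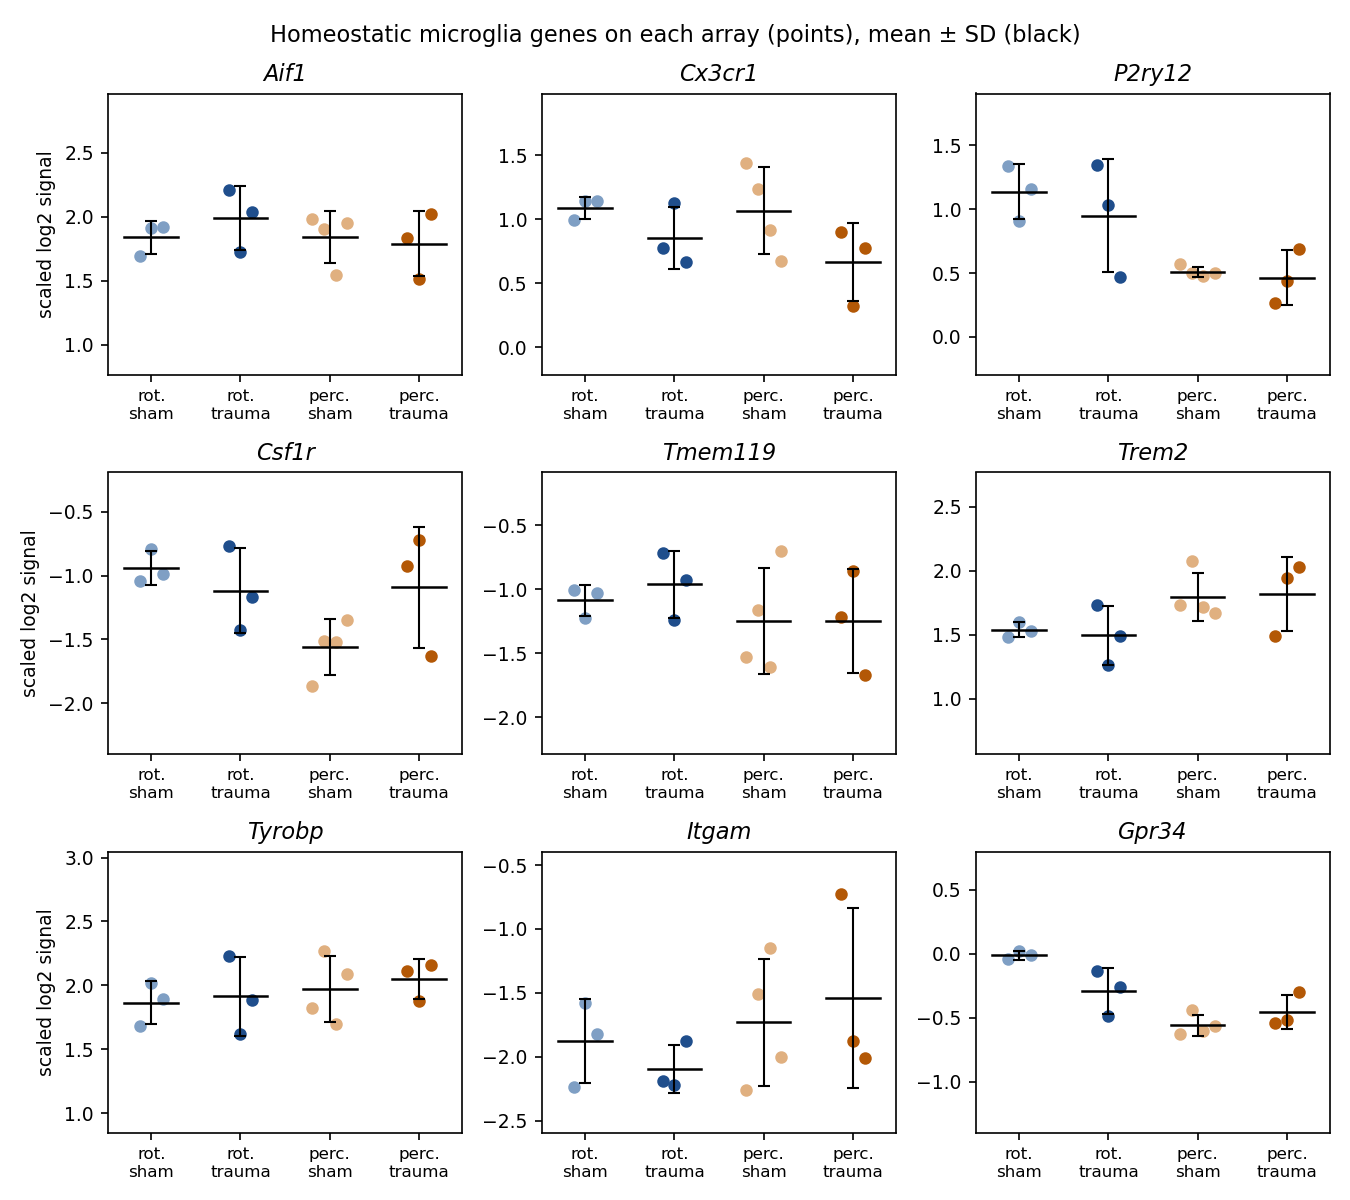
Scaled log2 signal of the 9 genes on each of the 13 arrays (points), with the group mean and SD in black, for sham and trauma of the rotational (rot.) and percussion (perc.) models. Each panel spans the same log2 range. Gpr34 is the only gene whose 3 rotational trauma arrays all lie below the 3 rotational sham arrays.

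Gpr34, a receptor for lysophosphatidylserine found mainly on microglia, was the member with the smallest spread within groups (SD 0.12). Its rotational sham arrays read −0.04, 0.03 and −0.01, and its rotational trauma arrays −0.13, −0.49 and −0.26. All 3 trauma arrays lay below all 3 sham arrays, as did 10.6% of all genes. The difference was −0.28 (SE 0.098, 95% interval −0.50 to −0.07), which is 1.22-fold lower and did not pass (adjusted p = 0.592). Without rotational trauma 2 it was −0.19.
The percussion sham arrays of Gpr34 read −0.62, −0.44, −0.60 and −0.57, and the percussion trauma arrays −0.54, −0.52 and −0.30. These groups overlapped. The difference of 0.11 had a 95% interval of −0.10 to 0.31 (adjusted p = 0.692), and it was 0.03 without percussion trauma 3. The percussion effect was 0.39 above the rotational effect (95% interval 0.09 to 0.68, adjusted p = 0.466), which did not pass.

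Cx3cr1, the fractalkine receptor, was the member with the lowest differences in the percussion model and in the mean of both. Its rotational sham arrays read 0.99, 1.14 and 1.14, and the trauma arrays 0.77, 1.13 and 0.66. In percussion sham it read 1.44, 1.23, 0.92 and 0.67, and in percussion trauma 0.90, 0.32 and 0.77. Both pairs of groups overlapped.
The rotational difference was −0.24 (95% interval −0.68 to 0.21, adjusted p = 0.926). It was −0.37 without rotational trauma 2 and −0.14 without rotational trauma 3. The percussion difference was −0.40 (95% interval −0.82 to 0.02, adjusted p = 0.458), which is 1.32-fold lower, and −0.23 without percussion trauma 2. In the mean of both models Cx3cr1 lay at −0.32 (SE 0.140, 95% interval −0.63 to −0.01), with an adjusted p of 0.546.

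The repeat at the end of the Cx3cr1 probe is held, at this length or longer, by the probes of 11 other genes, 7 of which have a symbol: Cym, Extl3, Glra2, Ptprn2, Rassf2, Sec61gl and Tmem47. This group was picked after the Cx3cr1 values and sequence had been seen, so it is described and not tested. All 11 lay below 0 in both models. Their median difference was −0.15 in the rotational model, between −0.22 and −0.09, and −0.33 in the percussion model, between −0.49 and −0.24. In the mean of both models it was −0.26 beside −0.32 for Cx3cr1, and none of the 11 passed the adjusted threshold.
Over the 13 arrays, after each group's mean was subtracted, Cx3cr1 correlated with the median of these 11 genes at r = 0.987. With the mean of the other 8 members its r was −0.313. Arrays of 1 slide, the same scaling and the same repeat are shared by these points. The Cx3cr1 probe thus varied from array to array with probes of other genes, and the part of the repeat in its trauma difference was not tested. Without Cx3cr1 the median of the other members was −0.11 in the rotational model and 0.05 in the percussion model.

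**Figure D2:**
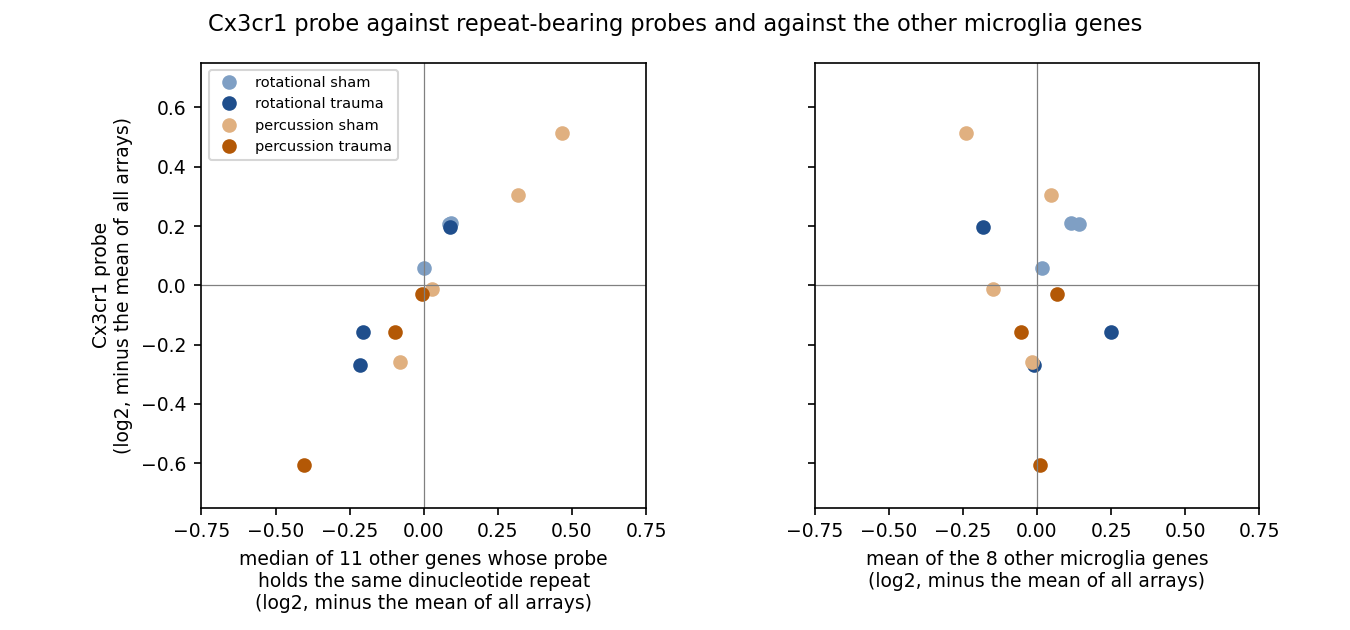
Cx3cr1 on each of the 13 arrays (vertical axis, log2 signal minus its mean over all arrays) against the median of 11 other genes whose probe holds the same repeat (left) and against the mean of the 8 other microglia genes (right). Points are coloured by group. The points follow a line on the left and scatter on the right; within groups r was 0.987 and −0.313.

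Csf1r, the receptor for the growth factors CSF1 and IL-34, had the highest difference of the members in the percussion model. Percussion sham read −1.86, −1.51, −1.52 and −1.34, and percussion trauma −0.93, −0.72 and −1.63. The trauma arrays 1 and 2 lay above every sham array and trauma array 3 lay among them. The difference was 0.47 (SE 0.215, 95% interval −0.0036 to 0.94, adjusted p = 0.444), and it was 0.28 without percussion trauma 2 and 0.73 without percussion trauma 3.
In rotational sham Csf1r read −1.04, −0.79 and −0.99, and in rotational trauma −0.77, −1.43 and −1.16. These overlapped, and the difference of −0.18 had a 95% interval of −0.68 to 0.33. It was −0.10 without rotational sham 2, −0.35 without rotational trauma 1 and −0.02 without rotational trauma 2. The percussion effect exceeded the rotational effect by 0.65 (95% interval −0.04 to 1.34, adjusted p = 0.608).
The other Csf1r probe (A_64_P351634), which shares no run over 6 bases with the first, gave 0.78 (SE 0.249, adjusted p = 0.305) in the percussion model. Its 95% interval there was 0.23 to 1.32. This probe was dimmer, averaging −3.98 in percussion sham and −3.20 in percussion trauma. It gave −0.14 (SE 0.267) in the rotational model. On the dimmer probe the percussion effect exceeded the rotational effect by 0.92 (95% interval 0.12 to 1.72, adjusted p = 0.508). By limma its unadjusted p was 0.0095 in the percussion model and 0.028 in the difference. The counts of members at an unadjusted p under 0.05 thus hold for the brighter probe. Both probes had the same signs, and neither passed.

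Itgam had the widest spread within groups of any member (SD 0.47), larger than that of 93.3% of all genes. Its brighter probe read −2.23, −1.58 and −1.82 in rotational sham and −2.19, −2.22 and −1.88 in rotational trauma. It read −2.26, −1.51, −1.15 and −2.002 in percussion sham and −0.73, −1.87 and −2.01 in percussion trauma. Percussion trauma 1 was the highest of all 13 arrays.
On the overlapping probe that array also read highest, at −1.83, and the array lowest on both probes was percussion sham 1, at −2.26 and −4.17. The differences were −0.22 (SE 0.350) after rotational and 0.19 (SE 0.327) after percussion injury, and on the overlapping probe −0.50 (SE 0.494) and 0.37 (SE 0.462). The rotational difference of the brighter probe was −0.39 without rotational sham 1, −0.07 without rotational sham 2 and −0.33 without rotational trauma 3. Its percussion difference turned to −0.21 without percussion trauma 1, and was 0.02 without percussion sham 1 and 0.43 without percussion trauma 3. None of these differences passed, and the groups overlapped on both probes.

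**Figure D3:**
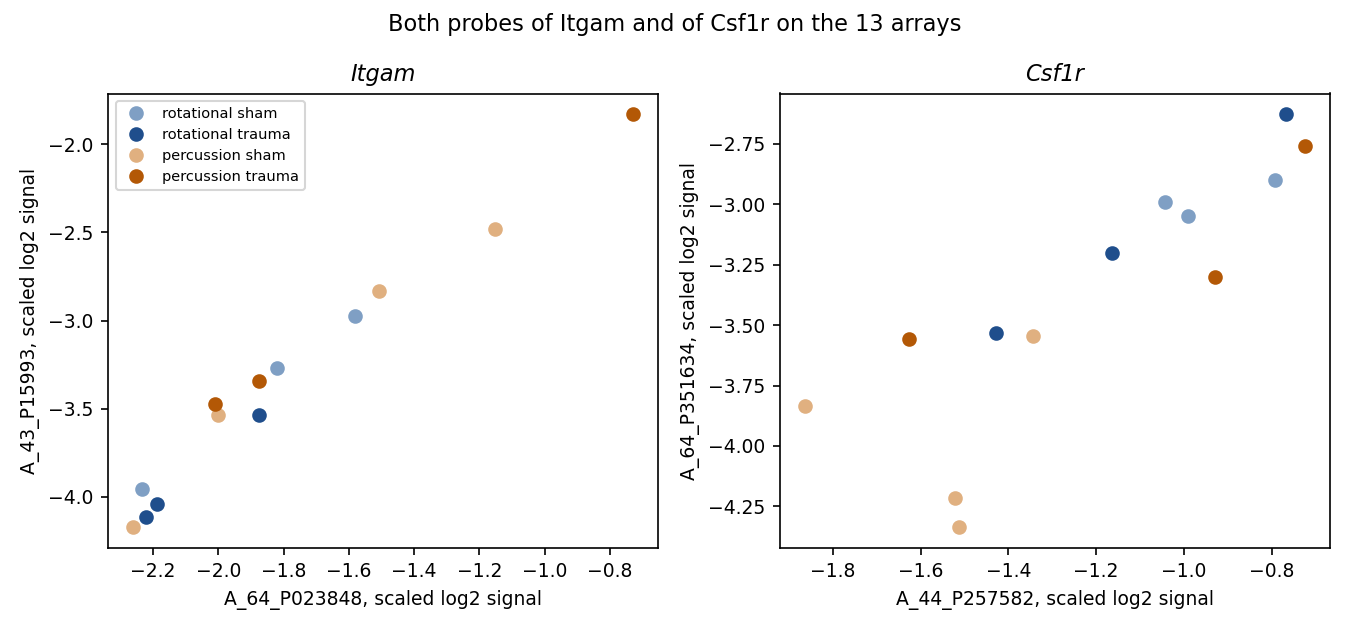
Scaled log2 signal of the brighter probe (horizontal axis) against the other probe (vertical axis) of Itgam (left) and Csf1r (right), 1 point for each of the 13 arrays, coloured by group. The Itgam probes share 34 bases and keep nearly the same order of arrays; the Csf1r probes share at most 6 bases.

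P2ry12, the ADP receptor that steers microglial processes, read 1.34, 0.91 and 1.16 in rotational sham and 1.34, 1.03 and 0.47 in rotational trauma. The trauma array 3 alone lay below the sham arrays, and the difference of −0.19 (95% interval −0.61 to 0.23) turned to 0.05 without it and was −0.38 without rotational trauma 1. In the percussion model P2ry12 read 0.57, 0.50, 0.48 and 0.50 in sham and 0.27, 0.44 and 0.69 in trauma. The difference was −0.04 (95% interval −0.44 to 0.35), with trauma arrays on both sides of the sham arrays, and it was 0.06 without percussion trauma 1 and −0.16 without percussion trauma 3.

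Tmem119, a membrane protein that separates microglia from other macrophages, differed by 0.13 (95% interval −0.42 to 0.68) in the rotational model. In the percussion model its difference was 0.0036 (95% interval −0.51 to 0.52). Its sham arrays ran from −1.23 to −1.004 (rotational) and −1.61 to −0.70 (percussion), and its trauma arrays from −1.24 to −0.72 and from −1.67 to −0.86. A second, dimmer probe gave 0.01 (SE 0.307) and 0.28 (SE 0.287). The groups overlapped in both models. The rotational difference was 0.0033 without rotational trauma 1, 0.06 without rotational sham 2 and 0.26 without rotational trauma 2. The percussion difference ran from −0.19 without percussion trauma 2 to 0.22 without percussion trauma 3.

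Trem2 and its adaptor Tyrobp had group means within 0.08 of sham in both models. Trem2 read 1.48, 1.60 and 1.53 in rotational sham and 1.73, 1.26 and 1.49 in rotational trauma, a difference of −0.04 (95% interval −0.40 to 0.31). It read 1.73, 2.07, 1.72 and 1.67 in percussion sham and 1.49, 1.94 and 2.03 in percussion trauma, a difference of 0.02 (95% interval −0.30 to 0.35). In both models the trauma arrays lay on both sides of the sham mean. Leaving out 1 array moved the rotational difference between −0.16 (rotational trauma 1) and 0.07 (rotational trauma 2), and the percussion difference between −0.08 (percussion trauma 3) and 0.19 (percussion trauma 1).
Tyrobp ran from 1.68 to 2.02 in rotational sham and from 1.62 to 2.23 in rotational trauma, a difference of 0.05 (95% interval −0.34 to 0.44). It ran from 1.70 to 2.27 in percussion sham and from 1.88 to 2.16 in percussion trauma, a difference of 0.08 (95% interval −0.29 to 0.44). The rotational difference of Tyrobp ran from −0.11 without rotational trauma 1 to 0.20 without rotational trauma 2, and the percussion difference from −0.01 without percussion sham 3 to 0.18 without percussion sham 2.

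Aif1, a calcium- and actin-binding protein, differed by 0.15 (95% interval −0.21 to 0.51) in the rotational and −0.05 (95% interval −0.39 to 0.28) in the percussion model. Its second probe gave 0.17 (SE 0.167) and −0.07 (SE 0.156). Rotational trauma ran from 1.72 to 2.21 against 1.69 to 1.92 in sham, and percussion trauma from 1.52 to 2.02 against 1.54 to 1.98. The rotational difference was 0.04 without rotational trauma 1, 0.28 without rotational trauma 2 and 0.08 without rotational sham 1. The percussion difference ran from −0.17 without percussion trauma 3 to 0.08 without percussion trauma 2.

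**Figure D4:**
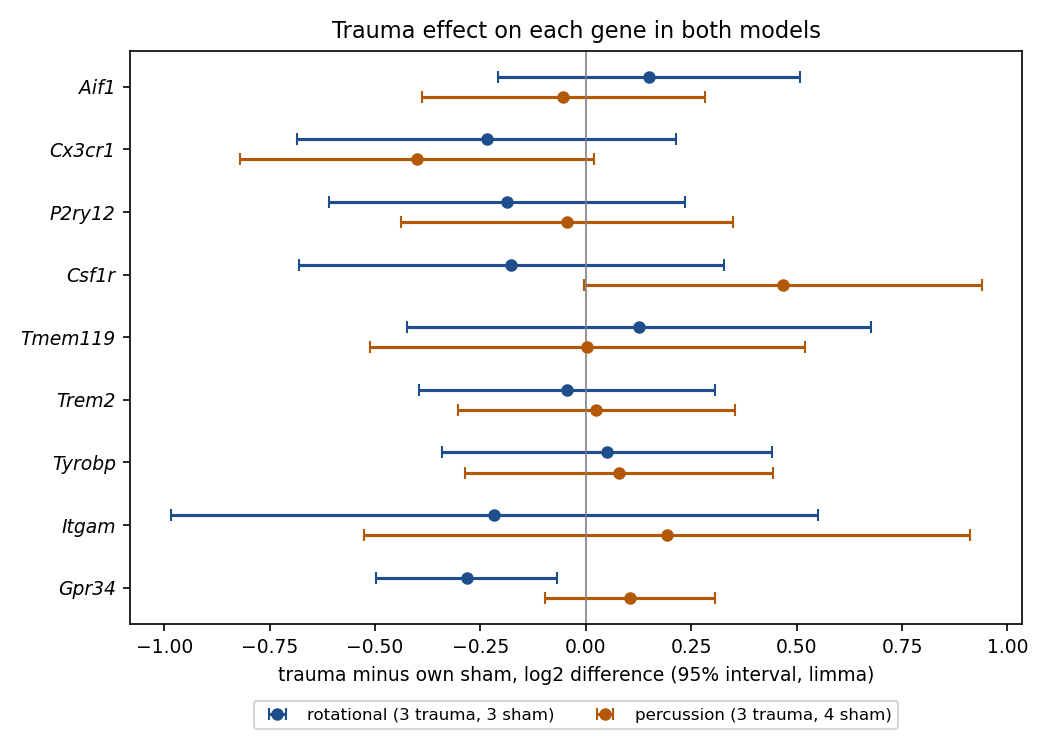
Log2 difference of trauma minus its own sham for the 9 genes (points) with 95% intervals from limma, in the rotational (blue) and percussion (orange) models. The interval leaves out 0 for Gpr34 in the rotational model, from −0.50 to −0.07, before adjustment over all genes.

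Neighbouring group means of a gene were mostly too close to be ordered beyond their spread. Of neighbouring groups in the order of levels, the ranges did not overlap for Trem2 between rotational sham (mean 1.54 ± 0.061, SD, n = 3) and percussion sham (1.80 ± 0.186, n = 4). They did not overlap for Gpr34 between rotational trauma (−0.29 ± 0.179, n = 3) and rotational sham (−0.01 ± 0.034, n = 3). P2ry12 averaged 1.14 ± 0.215 (n = 3) in rotational sham and 0.51 ± 0.040 (n = 4) in percussion sham, with rotational trauma (0.95 ± 0.442, n = 3) between them. Gpr34 averaged −0.56 ± 0.081 (n = 4) and Csf1r −1.56 ± 0.218 (n = 4) in percussion sham, the lowest group mean of each. The sham groups did not overlap for P2ry12, at 0.91 to 1.34 in rotational and 0.48 to 0.57 in percussion sham. They also did not overlap for Gpr34 (−0.04 to 0.03 and −0.62 to −0.44) and Csf1r (−1.04 to −0.79 and −1.86 to −1.34). The share of all genes with such a gap between sham groups is not given here. Such steps between sham groups lie between slides, which the model is confounded with.

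The SD within groups had a median of 0.25 over the 9 genes beside 0.15 over all genes. It was above the median of all genes for the others and below it for Gpr34, whose SD exceeded that of 32.6% of genes. The SD between spots of the same probe on an array was 0.024 to 0.108 for the 8 members with more than 1 spot, below each gene's SD between arrays. Among the 36 pairs of members, 24 correlated above 0 over the 13 arrays after group means were subtracted, with a median r of 0.092. The highest were Trem2 with Gpr34 (0.836), Tyrobp with Gpr34 (0.802), Aif1 with Tyrobp (0.791) and Csf1r with Tmem119 (0.762). The lowest was Cx3cr1 with Tmem119 (−0.656).
The 5 other genes most like the mean of the members by this measure were Fscn1 (r = 0.932), Gdf9 (0.919), Tgfbr1 (0.915), Cx3cl1 (0.907) and Plac8 (0.905). They were picked as the highest of all genes over 13 arrays, which share slides and scaling, so the r values are descriptions.

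Other genes of microglia and their partners were taken from lists, and none passed the adjusted threshold in any comparison. Of 7 measured genes in the list of other microglia identity genes, 4 lay above and 3 below sham after rotational injury (median 0.02). After percussion injury all 7 lay above it (median 0.28). Of these 7, 6 were well above background on all 13 arrays. Olfml3, a secreted protein made by microglia and by mesenchymal cells, read −0.40, −1.41 and −0.82 in rotational sham and 0.69, −0.32 and 0.27 in trauma. All trauma arrays lay above all sham arrays, as did 4.85% of all genes. Olfml3 differed by 1.09 (SE 0.311, adjusted p = 0.502) and, after percussion injury, by 0.69 (SE 0.291, adjusted p = 0.412). Gpr183, an oxysterol receptor, differed by −0.07 and 1.02, and Slc2a5, a fructose transporter, by 0.25 and 0.28. Siglech was not well above background on any array.

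The ligands and partners of the member receptors had 16 measured genes, of which 9 lay above sham after rotational injury (median 0.06) and 13 after percussion injury (median 0.14). Il34, a CSF1R ligand made by neurons, differed by 0.20 after rotational injury (SE 0.072, adjusted p = 0.597) and by 0.05 after percussion injury. Cd200r1, an inhibitory receptor, differed by −0.46 (SE 0.122, adjusted p = 0.457) and 0.08. Icam1, a ligand of ITGAM, differed by 0.11 and 0.58, and Tgfbr2, a receptor for TGF-beta, by 0.14 and 0.48.
Downstream of TREM2, TYROBP and CSF1R, 4 of 10 genes lay above sham in the rotational model and 6 of 10 in the percussion model. Inpp5d, the phosphatase SHIP1, differed by 0.47 (SE 0.152, adjusted p = 0.571) and 0.05. Hcst, the adaptor DAP10, differed by 0.24 and 0.62, and Cbl, a ubiquitin ligase, by −0.23 and 0.19. Of 8 transcription factors, 4 lay above sham in the rotational and 7 in the percussion model, with Runx1 at 0.26 and 0.22, Irf5 at 0.10 and 0.24 and Mef2a at 0.05 and 0.36. Among all genes, 39.8% and 52.7% lay above 0 in these models. Well above background on all 13 arrays were 14 of the 16 ligands and partners, 8 of the 10 downstream genes and 6 of the 8 transcription factors. The others could be kept through the group where they were high, so these counts are not independent of the filter.

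Genes that microglia share with all myeloid cells in brain lay above sham in 11 of 15 after rotational injury (median 0.07) and in 14 of 15 after percussion injury (median 0.22). Cd14, a co-receptor for bacterial lipid, differed by 0.28 and by 0.82 (SE 0.194, adjusted p = 0.229). Cd68, a lysosomal protein of phagocytes, differed by 0.26 and 0.66, and Fcgr2b, an inhibitory Fc receptor, by −0.37 and 0.24. Of 13 phagocytic-state genes 11 and 12 lay above sham, with medians of 0.12 and 0.23. Among all genes, 39.8% and 52.7% lay above 0 in these models. All 15 myeloid genes but only 11 of the 13 phagocytic-state genes were well above background on all 13 arrays. The others could be kept through the group where they were high, so the phagocytic-state counts are not independent of the filter. Lgals3, a galactoside-binding lectin, differed by 0.64 (SE 0.293, adjusted p = 0.731) and 1.203 (SE 0.274, adjusted p = 0.226). Gpnmb differed by 0.31 and 0.67, Lyz2 by 0.36 and 0.35, and Cd63 by 0.25 and 0.18. The members' own medians were −0.18 and 0.02, and the difference between the lists was not tested.

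Macrophages at the borders of the brain carry several of the same genes, and none of their markers passed the adjusted threshold. All 8 measured border macrophage genes lay above sham in the rotational model (median 0.64) and 7 of 8 in the percussion model (median 0.40). Of these 8, 5 were well above background on all 13 arrays. The filter can keep a dimmer gene through the group where it is high, so these counts are not independent of the filter. Clec10a, a lectin, differed by 1.15 (SE 0.299, adjusted p = 0.456) and 1.19 (SE 0.279, adjusted p = 0.228).
Cd163, the haemoglobin scavenger receptor, differed by 1.17 (SE 0.330, adjusted p = 0.495) in the rotational model. In percussion sham it was not well above background on any array, and percussion trauma was at least 2.46-fold higher (adjusted p = 0.226). That bound takes, on each sham array, the higher of the probe's own signal and the lowest signal well above background. Lyve1 differed by 0.60 and −0.07, and Mrc1 was above background on 1 array and not tested. The summed linear signal of the 8 genes, each relative to the array's 75th percentile, was 0.498 to 0.647 in rotational sham and 0.593 to 1.04 in rotational trauma. It was 0.402 to 0.592 in percussion sham and 0.588 to 0.851 in percussion trauma. The same sum over the 9 members was 15.9 to 17.3, 14.7 to 19.2, 14.5 to 18.4 and 15.1 to 17.7 in these 4 groups.

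Blood-derived cells gave little signal. Of 14 monocyte and neutrophil genes, 8 were not well above background on any array, Ccr2 among them, and 5 were tested. Of these 5, 2 were above background on all 13 arrays. Plac8 differed by 0.25 and 0.71, and Chi3l1 by −0.32 and −0.11; S100a8 and S100a9 differed by 0.10 and 0.21 in the rotational model. The 5 genes summed to 1.07 to 1.23 in rotational sham, 0.871 to 1.35 in rotational trauma, 0.835 to 0.938 in percussion sham and 0.894 to 1.05 in percussion trauma. Of 12 lymphocyte genes 8 were above background on no array, Cd3e among them, and the 4 measured lay above sham in both models (medians 0.27 and 0.21). Of these 4, 1 was above background on all 13 arrays, and the others could be kept through the group where they were high. Their direction is therefore not independent of the filter.
Meningeal fibroblast genes lay above sham in 10 of 10 genes in both models, with medians of 1.15 and 1.31. Col1a1, Col1a2 and Col3a1, which encode fibrillar collagens, differed by 0.89, 1.23 and 1.23 in the rotational and by 1.81, 1.29 and 1.13 in the percussion model. Their summed signal was 6.83 to 12.4 in rotational sham, 15.2 to 29.5 in rotational trauma, 6.36 to 14.02 in percussion sham and 18.8 to 40.0 in percussion trauma. Within a model these sums did not overlap between sham and trauma. The part of border cells or of the amount of meninges on the tissue in any microglial value was not tested.

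The other cell types of the cortex were measured by 10 neuron, 9 astrocyte, 10 oligodendrocyte and 9 endothelial genes. Their medians were −0.10, −0.07, 0.39 and 0.03 after rotational injury and −0.03, 0.08, −0.02 and 0.16 after percussion injury. None of these genes passed the adjusted threshold in either model. Of the 10 oligodendrocyte genes, 8 lay above sham after rotational injury, from −0.06 for Mbp to 0.70 for Cldn11. By limma 3 of the 10 had an unadjusted p under 0.05 in that model, beside 6.86% of all genes. The same count was 5 of 10 for the meningeal fibroblast genes and 3 of 8 for the border macrophage genes. Mag, a myelin adhesion protein, and Cldn11, a claudin of myelin, differed by 0.42 (adjusted p = 0.600) and 0.70 (adjusted p = 0.593). After percussion injury 4 of the 10 lay above sham, from −0.25 for Mog to 0.36 for Myrf. By limma, 0 of the 10 had an unadjusted p under 0.05 in that model, beside 11.3% of all genes. The count there was 10 of 10 for meningeal fibroblast genes, 3 of 8 for border macrophage genes and 6 of 13 for phagocytic-state genes. It was 4 of 8 for transcription factors, 4 of 15 for genes shared by myeloid cells and 4 of 16 for ligands and partners. The remaining lists had 0 to 2 such genes each.
Of the 9 astrocyte genes, 1 lay above sham after rotational injury and 5 after percussion injury. Gfap, an intermediate filament of astrocytes that is raised in reactive gliosis, differed by −0.36 and by 0.98 (SE 0.312, adjusted p = 0.304). Fgfr3 differed by −0.29 and 0.29, and Aqp4, the water channel of astrocyte endfeet, by −0.07 and 0.18. Of the 10 neuron genes 3 and 4 lay above sham, with the vesicle fusion gene Snap25 at −0.20 and −0.29 and Rbfox3, which encodes NeuN, at 0.12 and −0.50. Of the 9 endothelial genes 5 and 8 lay above sham, with the tight junction gene Cldn5 at −0.0011 and 0.20 and Tek, an angiopoietin receptor, at 0.43 and 0.54. The neuron genes ran from −0.20 to 0.12 after rotational and from −0.50 to 0.09 after percussion injury. For the astrocyte genes the ranges were −0.36 to 0.0068 and −0.10 to 0.98, and for the endothelial genes −0.13 to 0.43 and −0.14 to 0.54. Several of the named genes lie at the ends of these ranges, and not every defining marker is printed. The part of these cell types in any microglial value was not tested.

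**Figure D5:**
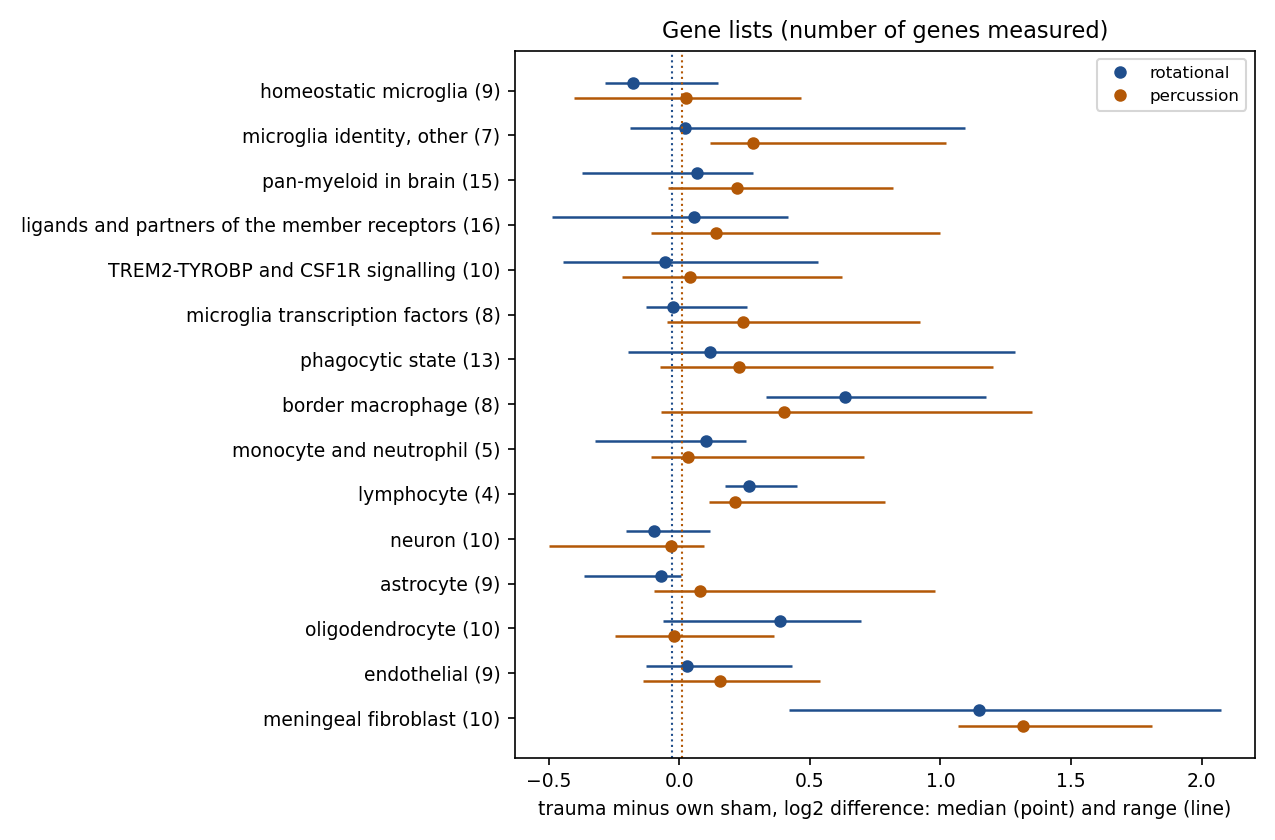
Log2 difference of trauma minus its own sham for each gene list in the rotational (blue) and percussion (orange) models. Points are the median over the measured genes (their number in brackets), lines run from the lowest to the highest gene, and dotted lines mark the median of all genes. The homeostatic microglia genes lie at −0.18 and 0.02, and the meningeal fibroblast genes at 1.15 and 1.31.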

How the data were processed

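Spots were quantified by the authors in Agilent Feature Extraction 10.5.1.1, per the file headers. In the deposited files the unit of the processed signal is intensity. The authors also deposited a table of log2 values with 1 column per array, used as an alternative. The normalization behind it is not given in the sources used here. Its first column has a median of 8.15, and each column followed its own array best (13 of 13). Of 62976 spots per array, 4259 control spots were left out, and 7294 spot values flagged as outliers were set missing. No spot was saturated (0). Spots of a probe were averaged on the log2 scale, after subtraction of each array's 75th percentile.

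A probe counted as above background on an array where all of its unflagged spots did, and was kept if so on every array of at least 1 group. This rule replaced an earlier one (at least 50% of the spots) after the number of genes the earlier rule kept and its calls had been seen. Under either rule a dim gene can be kept through the group where it is high. That can favour its direction in the counts of a list. A gene was read from its probe of highest mean, which left 20005 probes and 17245 genes (6 with a missing value). Symbols were updated from RefSeq's GRCr8 gene table, used for names only: accessions named 18006 probes, symbols 2654 and synonyms 559, while 9148 stayed as in the file.

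limma fitted group means over the 13 arrays (version 3.58.1 in R 4.3.3; 9 residual and 2.22 prior degrees of freedom), tested two-sided and adjusted by Benjamini-Hochberg over all genes. Values of a gene's second probe come from the same model fitted over the 20005 kept probes and adjusted over those probes. Python 3.11.15 drew the figures. Array number limits the precision. The fit was tested on simulated data. Alternatives covered scaling, background correction, the deposited log2 table, the filter on dim probes, averaging a gene's probes, 1 model per fit, replicate block, slide row, array weights and leaving out each array. Members and lists were chosen with earlier results of these data known. All members are named; from each other list, the genes of the 2 smallest p-values in the rotational, percussion and mean comparisons, the defining markers of other cell types, and the 5 genes most like the members. Not every gene this rule gives is printed. The repeat in the Cx3cr1 probe was singled out after its values were seen. A search of promoter sequences for motifs was also made and is not reported, since the arrays do not measure promoters.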

Additional observations from a re-analysis of the deposited data

Results flagged for a closer look

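Trem2 in percussion sham had 1 array far from the others. Percussion sham 2 read 2.07, beside 1.73, 1.72 and 1.67, and its gap to the nearest array was 0.847 of the group's range, above Dixon's 95% critical value for 4 arrays. All 9 genes were examined in this way in the only group of 4, and chance marks about 1 in 20 such groups. Trem2 had 1 spot per array, so no repeat spot stands beside this value.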

How the results depend on the processing

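The 4 differences of the 9 genes were recomputed under 25 alternatives. No value passed the adjusted threshold (smallest adjusted p 0.0942, Csf1r in the percussion model without percussion trauma 3). Of 882 values, 817 kept their direction and 65 changed sign, all from differences that had not passed.

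By setting, the sign changes were these. Tmem119 in the percussion model became −0.030 with quantile normalization, −0.065 with median scaling, −0.016 with normexp, −0.023 with the deposited log2 table and −0.052 with slide row as a factor. Trem2 in the percussion model became −0.044 with median scaling, −0.066 with normexp, −0.019 with the replicate block and −0.035 with array weights. In the mean of both models Trem2 became 0.014 with quantile normalization, 0.023 with the deposited table and 0.0039 with slide row. In the difference between models, Trem2 became −0.045 with normexp and −0.0071 with array weights, Tyrobp −0.023 with median scaling and −0.013 with normexp, and Tmem119 0.073 with the mean of a gene's probes and 0.061 with the replicate block. The cause was not tested.

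Leaving out 1 array at a time, the ranges of results that changed sign were as follows. In the rotational model they were −0.11 to 0.20 for Tyrobp, −0.16 to 0.070 for Trem2 and −0.38 to 0.052 for P2ry12. In the percussion model they were −0.16 to 0.056 for P2ry12, −0.19 to 0.22 for Tmem119, −0.21 to 0.43 for Itgam, −0.17 to 0.083 for Aif1, −0.081 to 0.19 for Trem2 and −0.013 to 0.18 for Tyrobp. In the mean they were −0.069 to 0.073 for Trem2, −0.21 to 0.11 for Itgam, −0.0100 to 0.12 for Aif1, −0.016 to 0.14 for Tyrobp, −0.21 to 0.0040 for P2ry12 and −0.034 to 0.17 for Tmem119. In the difference they were −0.12 to 0.19 for Tyrobp, −0.32 to 0.089 for Tmem119, −0.045 to 0.23 for Trem2, −0.097 to 0.34 for P2ry12 and −0.30 to 0.0055 for Cx3cr1. The median of the members ran from −0.18 to −0.023 in the rotational model and from −0.013 to 0.12 in the percussion model.

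The number of genes past the adjusted threshold, 2 in the rotational model, was 0 with quantile normalization and with slide row, 4 with normexp, 6 with the deposited table and with 1 model per fit, 356 with no filter on dim probes, 1 with the replicate block and 58 with array weights. From 0 in the percussion model it became 1 with the deposited table, 2979 with no filter and 4 with slide row. From 0 in the mean it became 99 with the replicate block, 5 with slide row and 95 with array weights, and from 0 in the difference 3780 with no filter. With at least 50% of a probe's spots above background as the detection rule, which was run first and replaced after its result was seen, it was 2 in the difference and 2 in the rotational model, over 17577 genes. Without 1 array the rotational count was 0 without rotational sham 2 or 3, percussion trauma 2 or percussion sham 2 or 4, 1 without percussion sham 1, and 5 to 12 without rotational trauma 1 or 3 or percussion trauma 1 or 3. The ranges were 0 to 12 (rotational), 0 to 5 (percussion), 0 to 21 (mean, highest without rotational trauma 2) and 0 to 8 (difference). The causes were not tested. Median scaling changed the share of genes above 0 from 45.3% to 29.6% in the mean and from 57.6% to 46.7% in the difference.

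Same-numbered trauma and sham arrays correlated at −0.02 to 0.28, and 3 of 6 trauma arrays matched their own number best. With so few arrays this cannot tell whether replicate numbers pair the samples, and the main fit left them unpaired. Of 144 group levels under other scalings, 39 moved by more than 1 SD.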

Other observations

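Probes kept for the fit were also sorted by the length of their longest run of alternating C and A, a grouping made after the values of the Cx3cr1 probe had been seen. All 14 probes with a run of 20 bases or more, the Cx3cr1 probe among them, lay below sham in both models (100%), with medians of −0.16 after rotational and −0.36 after percussion injury. Of 57 probes with a run of 8 to 13 bases, 70.2% lay below sham in the rotational and 59.6% in the percussion model, with medians of −0.06 and −0.07. Of the 19933 probes with a run of 0 to 7 bases, 61.2% and 46.0% lay below, with medians of −0.03 and 0.02.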
